A study of Mus musculus with 2 samples.

Results

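Recombinase and early B precursor genes are a set of 10 genes that mark the first steps of B cell development, chosen by symbol from 43346 genes listed. They are Rag1, Rag2, Dntt, Igll1, Vpreb1, Vpreb2, Vpreb3, Il7r, Kit and Flt3. Membership is by symbol only, but the set was chosen with earlier results of these data known. Their levels were read in CH12.LX, an immortalized mouse B cell lymphoma line of strain B10.H-2aH-4bp/Wts, labelled female. The labels name no treatment and give the age as unknown. Total RNA came from biological replicates 1 and 2, which form the study's only group, so there is no contrast between conditions. All cells come from 1 line, and the labels do not describe how the cultures were kept apart, so spread between the libraries may be technical. The libraries held 49278383 and 55950529 expected counts, which are estimated reads per gene. Levels are in TPM, a gene's length-corrected share of all transcripts.

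A B cell precursor builds its antigen receptor by cutting and rejoining DNA. RAG1 and RAG2 form the recombinase that cuts at V, D and J segments, and terminal transferase, the product of Dntt, adds bases at the heavy chain junctions. The new heavy chain is then tested in a pre-B cell receptor, in which the surrogate light chain made by Igll1 and Vpreb1 or Vpreb2 stands in for a light chain. Signals through the receptors for interleukin 7, stem cell factor and FLT3 ligand, encoded by Il7r, Kit and Flt3, support precursors before and during these steps. Most of these genes are normally switched off in mature B cells.

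The upstream promoter sequences of the expressed member and of the members with an E-box are shown. Rag2, Dntt, Il7r, Kit and Flt3 were also under 1 TPM, had no E-box and are not shown. The sequences shown are therefore no comparison of expressed with low members. All sequences come from RefSeq on GRCm38.p6, the assembly also called mm10, where all 10 members matched a window. Each runs 5′ to 3′ on the gene's strand over the 250 bases before the RefSeq start site, and Vpreb2 stops at its first exon in GENCODE M21, after 113 bases. Capitals mark the E-box CAGGTG, a binding sequence of E proteins such as the product of Tcf3, or the octamer ATTTGCAT, a binding sequence of octamer factors, on either strand.
Vpreb3, chr10:75948050-75948299, plus strand: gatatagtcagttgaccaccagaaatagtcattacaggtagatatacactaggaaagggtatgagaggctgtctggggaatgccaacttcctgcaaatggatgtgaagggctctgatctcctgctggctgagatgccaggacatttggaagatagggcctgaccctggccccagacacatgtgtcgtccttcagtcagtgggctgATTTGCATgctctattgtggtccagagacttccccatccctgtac
Rag1, chr2:101649533-101649782, minus strand: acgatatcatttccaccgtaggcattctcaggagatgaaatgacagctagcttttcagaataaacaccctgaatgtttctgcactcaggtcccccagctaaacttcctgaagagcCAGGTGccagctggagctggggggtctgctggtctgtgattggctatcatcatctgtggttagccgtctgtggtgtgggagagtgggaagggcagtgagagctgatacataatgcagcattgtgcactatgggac
Igll1, chr16:16863986-16864235, minus strand: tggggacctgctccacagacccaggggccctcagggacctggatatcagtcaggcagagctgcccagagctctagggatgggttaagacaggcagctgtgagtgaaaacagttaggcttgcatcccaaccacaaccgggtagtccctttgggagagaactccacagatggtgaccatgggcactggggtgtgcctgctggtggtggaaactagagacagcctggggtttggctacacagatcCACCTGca
Vpreb1, chr16:16869256-16869505, minus strand: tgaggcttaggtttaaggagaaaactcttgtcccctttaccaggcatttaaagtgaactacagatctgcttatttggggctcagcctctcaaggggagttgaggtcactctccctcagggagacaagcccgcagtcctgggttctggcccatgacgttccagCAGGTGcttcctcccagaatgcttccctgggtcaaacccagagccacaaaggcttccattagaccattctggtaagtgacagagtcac
Vpreb2, chr16:17980315-17980427, plus strand: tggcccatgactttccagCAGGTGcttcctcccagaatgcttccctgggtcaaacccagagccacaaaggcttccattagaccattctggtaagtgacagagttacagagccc

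An E-box lay in the window of 4 of 10 members, against 17.2% of 32851 RefSeq windows of the same length. It began 135 bases before the RefSeq start site of Rag1, 88 before that of Vpreb1, 232 before that of Vpreb2 and 8 before that of Igll1. The RefSeq start site of Vpreb2 lies inside its first exon in M21, so 232 and 88 are not counted from like points. The octamer lay 45 bases before the start site of Vpreb3 alone among the members, and 1.60% of all windows held it. This motif was added after the letters were read. The palindrome TCCC, any 2 bases, GGGA, a form of the EBF1 binding sequence, was in 0 member windows and in 0.779% of all windows. Both strands were searched, no member window held more than 1 of these motifs, and a match describes letters only. Vpreb1 and Vpreb2, near copies of each other, shared an unbroken run of 91 bases, with 104 of 106 aligned bases identical. This run holds the E-box of both, so the E-boxes of the 4 members are not 4 separate sequences.

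Vpreb3 was the only member expressed at 1 TPM or more in both libraries. This count of 1 of 10 stands beside 41.4% of 21474 protein-coding genes. Below 0.1 TPM in both libraries were 7 of 10 members, against 46.3% of protein-coding genes. With 0 counts in both libraries there were 3 members, Rag1, Rag2 and Vpreb2, against 28.4% of protein-coding genes. Another 3 had 0 counts in one library, and 4 had counts in each. The median member was at 0.015 TPM, and the median protein-coding gene at 0.195 TPM. In RNA from a whole culture, a low level can mean few expressing cells or little RNA in each, and these cannot be told apart.

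**Figure D1:**
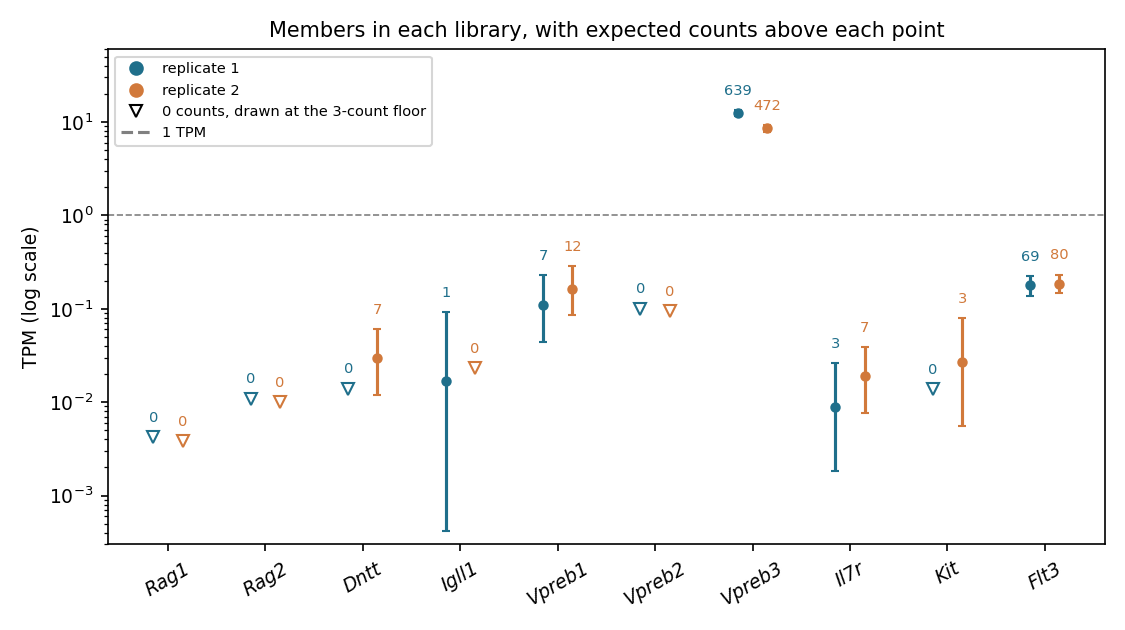
TPM of each member in replicate 1 (blue) and replicate 2 (orange) on a log axis, with exact 95% Poisson intervals that cover counting error only and expected counts printed above. Open triangles mark 0 counts at the level of 3 counts, and Vpreb3 is the only gene above the dashed line at 1 TPM.

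The recombinase genes gave no reads at all. Rag1 (ENSMUSG00000061311, chromosome 2, 101638282 to 101649501) had 0 counts in replicate 1 and 0 counts in replicate 2. Taking 3 counts as the most that a count of 0 allows, its level was under 0.00421 and 0.00386 TPM in replicates 1 and 2. Rag2 (ENSMUSG00000032864, chromosome 2, 101624718 to 101632529) also had 0 and 0 counts, with limits of 0.0109 and 0.0100 TPM. The authors' upper credibility bounds for Rag2 were higher, at 0.0198 and 0.0183 TPM in replicates 1 and 2. Both genes were silent at this depth, with limits lower than for shorter members because their transcripts are long.

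The silence of the Rag genes did not extend to the rest of their locus. Rag1 and Rag2 are on opposite strands with 5752 bases between them, and Rag1 and Rag2 also lie inside the annotated span of B230118H07Rik, which runs from 101560781 to 101649532 on the minus strand. That gene was at 2.13 and 2.19 TPM in replicates 1 and 2, with 151 and 219 counts. Traf6, which encodes a ubiquitin ligase of NF-kB signalling and is the next gene past Rag1, was at 2.37 and 2.56 TPM. These 2 neighbours of silent members were singled out after their values were seen. Of the 50-base words in Rag1 transcripts, 0.503% also occur in B230118H07Rik, and 4.70% of those in Rag2 do.

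Dntt (ENSMUSG00000025014, chromosome 19, 41029275 to 41059525) had 0 counts in replicate 1 and 7 counts in replicate 2, or 0.03 TPM. The exact 95% Poisson interval was 0 to 0.0172 TPM in replicate 1 and 0.0119 to 0.0609 TPM in replicate 2. These intervals overlap, but overlap is no test of a difference, and Dntt had too few counts for the comparison of libraries. All 7 counts were assigned to Dntt-201, the transcript of 12 exons. A level this low is close to the limit of 3 counts, which was 0.0127 TPM in replicate 2. On one side of Dntt lies Blnk, the adaptor that couples the B cell receptor to its kinases, at 34.1 and 20.7 TPM, and on the other Opalin, at 0 and 0 TPM.

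The surrogate light chain was nearly silent. Igll1 (ENSMUSG00000075370, chromosome 16, 16860671 to 16863985), which encodes the lambda5 chain, had 1 count in replicate 1 and 0 counts in replicate 2. The single count went to a transcript of the M4 annotation that has no match in M21, and Igll1-201, the coding transcript of 3 exons, had 0 counts in both libraries. Vpreb2 (ENSMUSG00000059280, chromosome 16, 17980428 to 17981273) had 0 and 0 counts. Its transcript is short, so the limits of 0.101 and 0.0943 TPM in replicates 1 and 2 are the loosest among the members with 0 counts in both libraries. The genes on either side of it were expressed: Slc25a1, the mitochondrial citrate carrier, was at 25.4 and 33.5 TPM and Dgcr6 at 9 and 9.37 TPM.

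Vpreb1 (ENSMUSG00000059305, chromosome 16, 16868403 to 16870843) had 7 counts in replicate 1 and 12 counts in replicate 2, at 0.11 and 0.16 TPM. The Poisson intervals, 0.0446 to 0.229 TPM and 0.0849 to 0.287 TPM, overlap. In replicate 1 all 7 counts were assigned to a transcript of 730 bases with no match in M21, and the coding transcript Vpreb1-201 had 0. In replicate 2 Vpreb1-201 took 62.6% of the gene's TPM and the transcript of 730 bases took 27.9%. Counts this few, divided among transcripts by estimation, do not show which transcript of Vpreb1 was present in either library.

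Reads of Vpreb1 can also be shared with other genes. Its span overlaps Top3b, a DNA topoisomerase gene on the opposite strand that was at 15.8 and 15.5 TPM, and whether the authors counted by strand is not given in the sources used here. Of the 50-base words in Vpreb1 transcripts, 23.6% also occur in Vpreb2 or Top3b on either strand, and 32.8% of those in Vpreb2 occur in Vpreb1. Values of both genes are uncertain for this reason. The part of Top3b reads in the counts of Vpreb1 was not tested.

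**Figure D2:**
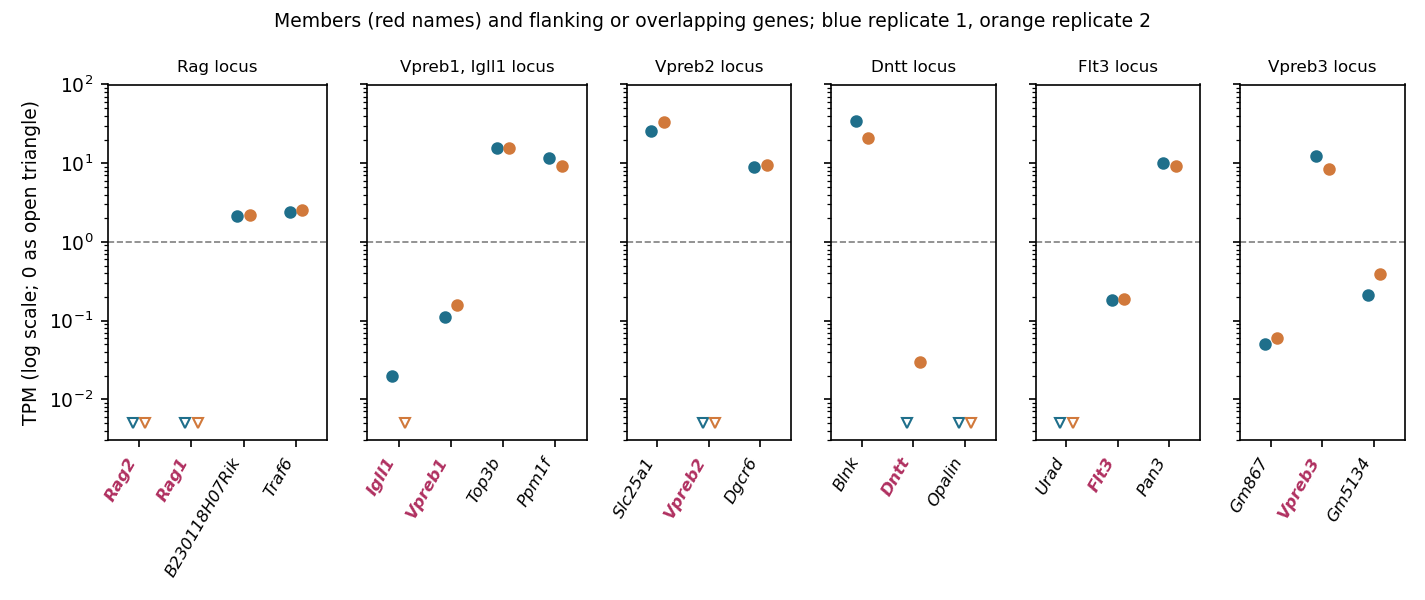
TPM on a log axis for members (red names) and their overlapping or nearest protein-coding genes in replicate 1 (blue) and replicate 2 (orange), with values of 0 drawn as open triangles. Among the loci drawn, Rag1, Rag2, Vpreb1, Vpreb2, Dntt and Flt3 each stand below at least 1 neighbour at over 2 TPM. Vpreb3 stands above both of its flanking genes. The loci of Il7r and Kit, whose flanking genes were all under 2 TPM, are not drawn. Spag6l beside Igll1 and Gm10800 beside Rag2 are also left out.

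Vpreb3 is related in sequence to the VpreB genes, but its product is a chaperone that binds newly made mu and light chains inside the cell. Vpreb3 (ENSMUSG00000000903, chromosome 10, 75943057 to 75949657) was at 12.4 and 8.51 TPM in replicates 1 and 2, a mean of 10.5 ± 2.76 TPM (SD, n = 2). These levels rest on 639 and 472 counts. Its mean exceeded that of 85.1% of protein-coding genes. All counts went to Vpreb3-201, a transcript of 2 exons that starts at 75948300, next to the promoter window shown above, and Vpreb3-202 had 0. None of its 50-base words occurred in transcripts of another gene. The flanking genes Gm867, at 0.05 and 0.06 TPM, and Gm5134, at 0.21 and 0.39 TPM, were both under 1 TPM.

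The gap between Vpreb3 and the surrogate light chain genes was wide in each library. Per unit of length, Vpreb3 was 112-fold above Vpreb1 in replicate 1 and 51.8-fold above it in replicate 2. Against the level of 3 counts for Vpreb2, which had 0 counts, it was 123-fold higher in replicate 1 and 90.2-fold higher in replicate 2. Against the level of 3 counts for Rag1 it was 2947-fold and 2207-fold higher. The exact Poisson upper bounds of Vpreb2 and Rag1 lie above 3 counts, so these folds are not lower bounds.

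Among the receptor genes, Flt3 was low but measurable in both libraries. Flt3 (ENSMUSG00000042817, chromosome 5, 147330741 to 147400489), a receptor tyrosine kinase of early progenitors, had 69 counts in replicate 1 and 80 counts in replicate 2, at 0.18 and 0.19 TPM. The Poisson intervals, 0.138 to 0.225 TPM and 0.148 to 0.232 TPM, lay away from 0 and overlapped almost wholly. Flt3-201, the coding transcript of 24 exons, held 96.2% and 92.8% of the gene's TPM. Its mean of 0.185 TPM was above that of 49.7% of protein-coding genes. Pan3, a neighbour of Flt3, was at 9.96 and 9.25 TPM, and the antisense gene Gm26597 over the Flt3 start had 1 and 0 counts.

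Il7r (ENSMUSG00000003882, chromosome 15, 9505788 to 9530176), the alpha chain of the interleukin 7 receptor, had 3 counts in replicate 1 and 7 counts in replicate 2, at 0.01 and 0.02 TPM. All of them were assigned to Il7r-201, the coding transcript of 8 exons. Kit (ENSMUSG00000005672, chromosome 5, 75574916 to 75656722), the receptor for stem cell factor, had 0 counts in replicate 1 and 3 counts in replicate 2, at 0 and 0.03 TPM. The 3 counts of Kit were spread by estimation over Kit-201, the coding transcript, and 2 retained intron transcripts, Kit-203 and Kit-205, which held 56.0% and 36.0% of its TPM. Counts this few do not show which form was present. Kit also lay among genes at or near 0, with Pdgfra, another receptor tyrosine kinase gene, at 0.01 and 0.01 TPM and Kdr, the VEGF receptor gene, with 0 and 1 counts. Beside Il7r, Capsl was at 1.38 and 1.19 TPM and Spef2 at 0.10 and 0.14 TPM. In replicate 1 the authors' credibility bounds for Kit ran from 0.0202 to 0.246 TPM although the gene had 0 counts, so the bounds of this gene exceed its own point estimate.

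The order of the members was Vpreb3, Flt3 and Vpreb1 in both libraries, and below these no stable order could be read. Vpreb3 stood apart from Flt3, with intervals that did not overlap in either library. Flt3 and Vpreb1 did not differ beyond their counting intervals in either library. Vpreb1 and the next member overlapped in replicate 1, where that was Igll1, and did not overlap in replicate 2, where it was Dntt. The other 9 members together held 80 counts in replicate 1 and 109 counts in replicate 2, set against 639 and 472 for Vpreb3 alone.

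The libraries were also compared with each other, with the 4 members that had at least 10 counts in all. Vpreb3 was lower in replicate 2, with a log2 ratio of -0.54 (95% interval -0.71 to -0.36) and an adjusted p of 4.61e-09 by the exact binomial test with Benjamini-Hochberg adjustment. The authors' credibility bounds did not overlap either, at 11.4 to 13.4 TPM in replicate 1 and 7.76 to 9.29 TPM in replicate 2. Its ratio was under 2, so by the rule of adjusted p under 0.05 and a ratio of at least 2 the count of members called was 0, against 4.77% of 15438 genes. At an unadjusted p under 0.05 it was 1 of 4, Vpreb3, against 54.6% of genes. Only counting error enters this test, which sets one library against the other and has no replicate check. Without the ratio, 50.4% of genes passed and 25.1% passed as lower in replicate 2.

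For the other 3 tested members the interval of the ratio held 0. Flt3 had a log2 ratio of 0.11 (95% interval -0.37 to 0.60, adjusted p = 0.792 by the exact binomial test). Vpreb1 was at 0.68 (-0.78 to 2.26) and Il7r at 1.12 (-1.01 to 3.71). The intervals of Vpreb1 and Il7r also hold a 2-fold change, and that of Flt3 does not. The remaining 6 members did not pass the filter on counts and have no ratio.

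**Figure D3:**
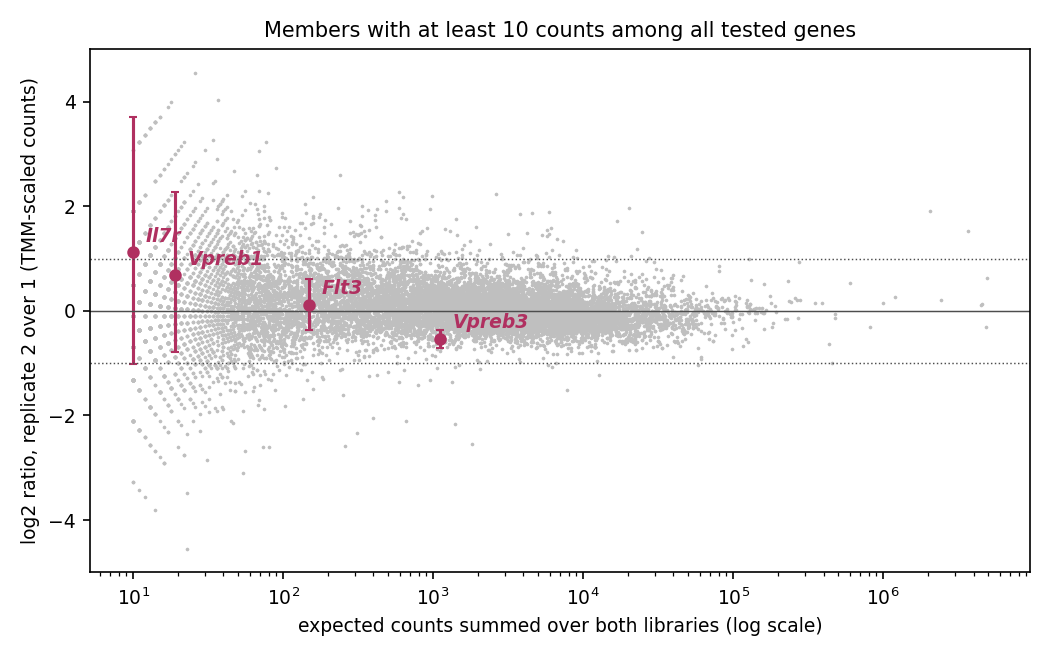
Log2 ratio of replicate 2 over replicate 1 in TMM-scaled counts against total counts on a log axis, for all tested genes with counts in both libraries (grey) and the 4 members that passed the filter (red, with exact 95% intervals). Vpreb3 lies below 0 and inside the dotted lines at a 2-fold change, and the other 3 intervals cross 0.

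Genes that work with the members were taken from 8 lists. Partners of the recombinase in cutting and end joining were mostly expressed although the recombinase was not. Of 12 such genes, 10 were at 1 TPM or more in both libraries, and the median was 4.01 TPM. Xrcc6 and Xrcc5, which encode the Ku proteins that hold broken DNA ends, were at 14.2 ± 1.75 and 13.4 ± 0.969 TPM (SD, n = 2). Hmgb1 and Hmgb2, DNA-bending proteins that assist RAG cutting, were at 89.5 ± 30.2 and 34.0 ± 3.63 TPM. Dclre1c, which encodes the Artemis nuclease that opens hairpin ends, was at 1.19 and 1.45 TPM, and the ligase gene Lig4 was lowest, at 0.65 and 0.52 TPM.

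Transcription factors of early B cell development were also mostly present: 15 of 19 reached 1 TPM in both libraries, and the median was 4.17 TPM. Tcf3, which encodes the E2A proteins that bind E-boxes, was highest, at 42.1 and 47.9 TPM. Spib was at 29.3 and 43.3 TPM, and Irf4 at 33.0 and 27.2 TPM. Ebf1 and Pax5, the factors that specify and commit the B lineage, were at 6.18 and 9.44 TPM and at 6.09 and 6.99 TPM; they were named after their values were seen. At the low end Foxo1, an activator of Rag transcription, was at 0.30 and 0.29 TPM, and Sox4, a factor of early progenitors, had 0 and 2 counts. Erg was at 0.11 and 0.08 TPM and Gfi1 at 0.29 and 0.40 TPM.

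The genes listed with the pre-B cell receptor and its signalling were present, since 11 of 11 reached 1 TPM and their median was 47.9 TPM. This list also holds Igkc and Iglc2, which encode conventional light chains and are not parts of a pre-B cell receptor. Ighm, the mu heavy chain, was at 1545 and 1452 TPM, and Igkc, the kappa light chain that replaces the surrogate chain, at 1518 and 1494 TPM. Iglc2, a lambda constant gene with close relatives and so uncertain, was at 218 and 189 TPM. Lgals1, which encodes galectin 1, a ligand of the pre-B cell receptor, was at 207 and 175 TPM. Cd79a was at 17.2 and 18.0 TPM, and the kinase gene Btk was the lowest of the list, at 5.63 and 3.91 TPM.

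Most signalling partners of Il7r, Kit and Flt3 on the list were expressed, while the 3 ligand genes measured, Il7, Kitl and Tslp, were at or near 0. Of 15 genes matched, 11 were detected, with a median of 5.14 TPM; Flt3l, the sixteenth listed, is not analysed here. Il2rg, the common gamma chain that pairs with the interleukin 7 receptor, was at 15.5 and 19.7 TPM, and the kinase gene Jak3 at 9.46 and 11.2 TPM. Il7 and Kitl had 0 counts in both libraries, with limits of 0.0117 and 0.0107 TPM for Il7, and Tslp had 0 and 2 counts. Cish, a target of STAT5, was at 0.41 and 0.83 TPM.

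Of 11 other surface and stage genes of precursors, 4 were detected and 5 were below 0.1 TPM in both libraries. Their shares, 36.4% and 45.5%, are near the 41.4% and 46.3% of all protein-coding genes. Cd34, a progenitor antigen, had 0 and 1 counts, Mme, which encodes CD10, had 0 and 1, and Enpep, the BP-1 antigen of pre-B cells, had 2 and 0. Cd24a, the heat stable antigen of immature B cells, was at 213 and 110 TPM in replicates 1 and 2. Ly6a, which encodes Sca-1, was at 160 and 162 TPM, and Ly6d, a marker of B-lineage progenitors, at 93.8 and 81.0 TPM. Ly6a and Ly6d belong to a family of related genes and Cd24a has near copies, so their values are less certain. Spn, which encodes CD43, was the other detected gene, at 3.35 and 3.80 TPM, below Vpreb3 and above the other 9 members in both libraries.

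**Figure D4:**
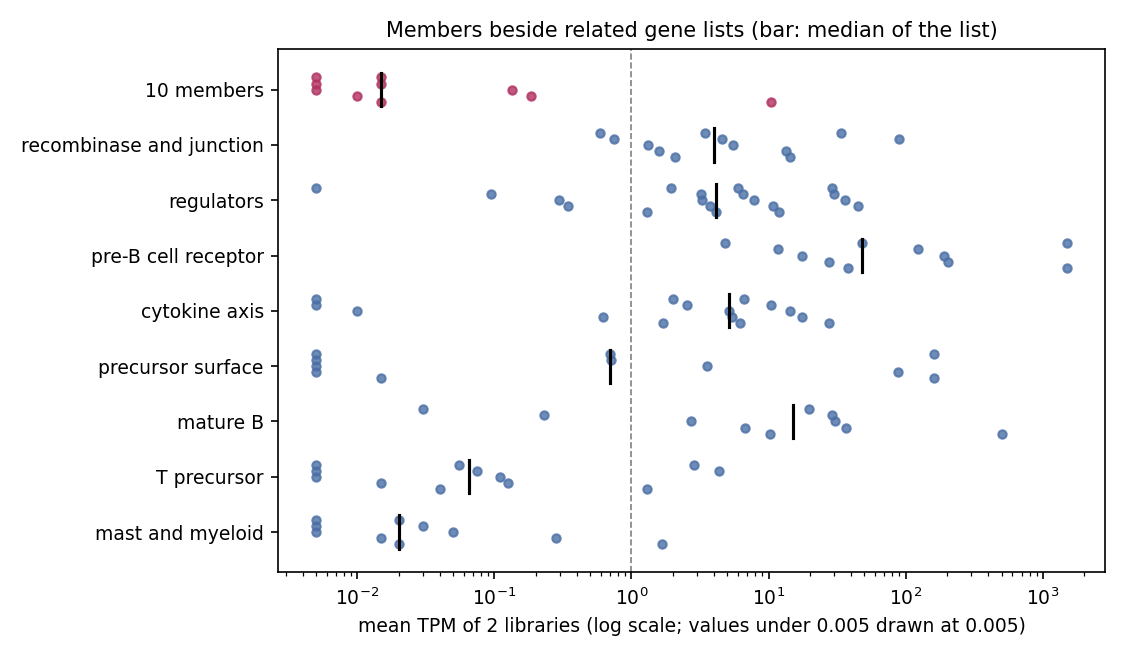
Mean TPM of the 2 libraries on a log axis for the 10 members (red) and for each gene of 8 related lists (blue), with a black bar at the median of each list and a dashed line at 1 TPM. The members have a median of 0.015 TPM. Recombinase partners, regulators, pre-B cell receptor partners and cytokine signalling partners have medians of 4.01 TPM or more, and mature B genes 15.0 TPM. Precursor surface, T precursor and mast and myeloid genes have medians of 0.695, 0.065 and 0.02 TPM.

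Between the libraries, no gene of these 5 lists passed the test with a ratio of at least 2, which 4.77% of all tested genes did. Without the ratio, 25.1% of all tested genes were lower and 25.2% higher in replicate 2, and the counts of the lists are read only against these. Of 12 partners of the recombinase in cutting and end joining, 4 were lower and 3 higher. Of 11 genes listed with the pre-B cell receptor, 7 were lower and 2 higher. Of 18 regulators tested, 4 were lower and 6 higher, and of 7 surface genes, 2 were lower and 2 higher. Of 12 cytokine signalling genes tested, 1, Mcl1, was lower and 9 were higher. Among the named genes that were lower, as Vpreb3 was, Blnk had a log2 ratio of -0.68, Hmgb1 of -0.70 and Cd24a of -0.93, while Il2rg was higher, at 0.39. These calls too cover counting error only.

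Markers of the labelled cell type and of other cells that use the same genes were read as a check. Of 10 B cell identity genes, 8 were detected, with Cd74 at 506 ± 14.5 TPM, Cd40 at 36.5 ± 0.269 TPM and Ms4a1 at 29.1 ± 5.46 TPM (SD, n = 2). Cr2, at 0.04 and 0.02 TPM, and Fcer2a, at 0.16 and 0.30 TPM, were not. T cells and thymocytes, which also use Rag1, Rag2, Dntt and Il7r, gave 3 of 12 markers detected, Cd2, Cd3g and Cd3d, at 4.33, 2.87 and 1.30 TPM on average. Cd3e and Thy1 of the same list had 0 counts in both libraries, while Cd3g had 247 and 302 counts and Cd3d 146 and 203. The summed level of the list was 8.64 and 9.18 TPM. Mast and myeloid cells, some of which use Kit or Flt3, gave 1 of 10 markers detected, Zbtb46, at 1.01 and 2.31 TPM, and the list summed to 1.43 and 2.72 TPM. Zbtb46 was called higher in replicate 2, with a log2 ratio of 1.15 and an adjusted p of 1.31e-35 by the exact binomial test. The mast cell genes Cpa3, Fcer1a and Tpsb2 had 0 counts in both libraries, while Ms4a2, another mast cell gene, had 8 and 9 counts. Csf1r, the next highest of the list after Zbtb46, was at 0.28 and 0.28 TPM, with 139 and 151 counts. The part of such cells in the counts of Flt3, Il7r, Kit and Dntt was not tested.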

How the data were processed

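Total RNA of CH12.LX was measured in 2 libraries of 1 group. Neither aligner nor quantifier is given in the sources used here. The assembly was mm10, per the labels, and the manifests give annotations M2, M3 and M4 for the gene tables. The authors deposited, for each gene, an expected count (an estimated, not always whole, count of reads), a TPM and an FPKM, per the file headers. The deposited transcript tables add the percent of a gene's TPM that each transcript holds. Other deposited columns give credibility bounds of TPM and the effective length.

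The M4 tables were the main ones. Rows with no Ensembl gene identifier held 5.68e-05% and 5.36e-05% of counts and were left out. GENCODE M21, on mm10, gave symbols and positions for 42462 of 43346 genes. Protein-coding genes held 24.4% and 24.3% of TPM, which lowers TPM values relative to protein-coding TPM. The members and lists were chosen with earlier results of these data known. Named from each list are at most the 4 highest and 4 lowest genes, plus all members and their neighbours; other names are marked as chosen later.

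Detection meant at least 1 TPM in both libraries. A count of 0 is given with a nominal limit of 3 counts, which is below its exact 95% Poisson upper bound. Intervals are exact 95% Poisson intervals, and both cover counting error only. Libraries were compared over 15438 genes with at least 10 rounded counts, scaled by TMM from edgeR 4.0.16 in R 4.3.3, with a two-sided exact binomial test, Benjamini-Hochberg adjusted p under 0.05 and a minimum ratio of 2. The test was checked on simulated counts that held counting error only, so the check does not cover other spread between libraries. Shared words of 50 bases were counted in M21 transcripts. Alternatives were DESeq2 1.42.0 size factors, total counts, no count filter, no ratio, M2 and M3, posterior mean TPM, FPKM and rescaled TPM. For ratios, TPM with a pseudocount of 0.1 was a further alternative. Python 3.11.15, pandas 2.3.3, scipy 1.17.1 and matplotlib 3.10.9 were used.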

Additional observations from a re-analysis of the deposited data

How the results depend on the processing

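The count of members at 1 TPM or more in both libraries was 1 with M2, M3, posterior mean TPM, FPKM and TPM rescaled to protein-coding genes, and 1 to 1 when either library was left out. With a threshold of 0.1 TPM it was 3, adding Flt3 and Vpreb1. Expected counts of all 10 members were the same in the 3 annotation releases. Rescaling to protein-coding genes put Vpreb3 at 50.8 and 35.1 TPM and Flt3 at 0.738 and 0.783 TPM, and the posterior mean put Kit at 0.13 in place of 0.015 TPM. The count of members called between the libraries was 0 with total counts, DESeq2 size factors, no count filter, M2 and M3, and 1, Vpreb3, with no minimum ratio, where calls over all genes rose from 737 to 7779. The log2 ratio of each tested member kept its sign and its side of the threshold under total counts and DESeq2 size factors. From TPM with a pseudocount of 0.1 the signs were kept, but Il7r fell from 1.12 to 0.126, under a 2-fold change. Vpreb1 fell from 0.68 to 0.308. No paired analysis was possible because there is a single group. Depth limits what can be said of Rag1, Rag2, Vpreb2, Igll1, Dntt, Il7r and Kit, which had at most 7 counts in a library.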
